A study of Mus musculus with 3 samples.

Results

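The genes described here encode the proteins of the cytoplasmic ribosome, and the question was where RNA bound by MTR4 lay in them. Members were taken by symbol from the RefSeq table of assembly GRCm38.p6: protein-coding genes named Rpl or Rps with a number and at most 1 letter, together with Rplp0, Rplp1, Rplp2, Rpsa and Fau. The ubiquitin fusion gene Rps27a, the kinase genes named Rps6k, pseudogenes and paralogs with an l after the number were left out. This gave 76 of the 21887 protein-coding genes, 46 of the large subunit and 30 of the small subunit. Rps3a1 encodes a small subunit protein but has a name outside this pattern, so it is not among the 76. The members lay on 20 chromosomes and were short, from 0.982 to 11.8 kb with a median of 3.17 kb.

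The study mapped RNA that precipitated with MTR4 in KIT-positive cells sorted from testes of mice at postnatal day 8. All 3 samples were labelled with the Mtr4WT genotype, the MTR4 antibody and UV-C irradiation at 400 mJ, so they formed 1 group with no control precipitation, input or mutant beside it. The method was LACE-seq, in which cells are crosslinked with ultraviolet light and the positions where reverse transcription ends mark the RNA contacts of the precipitated protein. The labels do not say how many animals or pools the samples came from. A single list of 15769 peaks was analysed, recorded under replicate 3, and lists of replicates 1 and 2 were not analysed here. Whether it pools the samples is not stated. Peaks come as intervals with a plus or minus sign and without any count or score, so depth is unknown and no value has a spread between replicates.

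MTR4 is the RNA helicase that feeds nuclear transcripts to the exosome, the complex that trims and degrades RNA from the 3′ end. Ribosomal protein genes are among the most strongly transcribed genes of dividing cells, and their mRNAs begin with a pyrimidine tract that places their translation under growth control. Many carry small nucleolar RNAs (snoRNAs) in their introns. These are cut out of the spliced intron and guide the modification of ribosomal RNA, box C/D snoRNAs for methylation and box H/ACA snoRNAs for pseudouridylation. In yeast and mammals the nuclear exosome trims snoRNA precursors at their 3′ ends.

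Most peaks were single 20-nt bins: 15093 of the 15769 had a width of 20 nt, and all coordinates were multiples of 20 nt. The minus sign was given to 9664 peaks (61.3%). Peaks also fell in marker genes of the labelled and of other testis cells, in 4 of 8 markers of differentiating spermatogonia (Kit with 2, but none in Stra8, Sohlh1, Dmrtb1 or Dazl), 4 of 6 of undifferentiated spermatogonia, 3 of 7 of Sertoli cells, 5 of 8 of Leydig and interstitial cells and 1 of 6 of macrophages, mast and endothelial cells. Of all protein-coding genes 25.5% held a peak, and 0 markers of any of these lists passed the per-gene test described below. The markers differ widely in length. Among those with a peak, folds over expectation in that test ran from 0.810 in Zbtb16 (184429 nt) to 53.9 in Insl3 (1326 nt). Kit (81736 nt) stood at 2.45-fold. A peak is not a measure of expression, and which cells the peaks of ribosomal protein genes came from was not tested.

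A peak midpoint lay in 29 of the 76 ribosomal protein genes (38.2%, 95% Wilson interval 28.1 to 49.4), with 43 peaks in all. Of all protein-coding genes, which are mostly longer, 25.5% held a peak. In the members' own length range it was 12.1%, or 874 of 7198 other genes. Intervals here and below cover counting error only. Per length, members held 0.158 peaks per kb (exact Poisson interval 0.114 to 0.213), against 0.0281 in those other genes. The share was higher in members in each length class: 6 of 19 members of up to 2500 nt had a peak (31.6%) against 4.04% of other genes, 18 of 45 members above that and up to 5000 nt (40%) against 11.5%, and 5 of 12 longer members (41.7%) against 14.7%. Without the peaks in or within 100 nt of a snoRNA gene, 14 of 76 members had a peak (18.4%, 11.3 to 28.6) against 12% of the other genes in the length range, a value inside the members' interval. Those other genes were longer, with a median of 5.24 kb. Per length, the remaining peaks gave 0.0550 per kb in members against 0.0274 in them. By length class the shares were then 15.8, 17.8 and 25% in members against 4.04, 11.4 and 14.4% in other genes. Only in the shortest class did the members' interval (5.52 to 37.6) leave out the share of other genes. A single peak was found in 23 members, 2 members had 2 peaks, 2 had 3 and 2 had 5, and the remaining 47 had none.

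**Figure D1:**
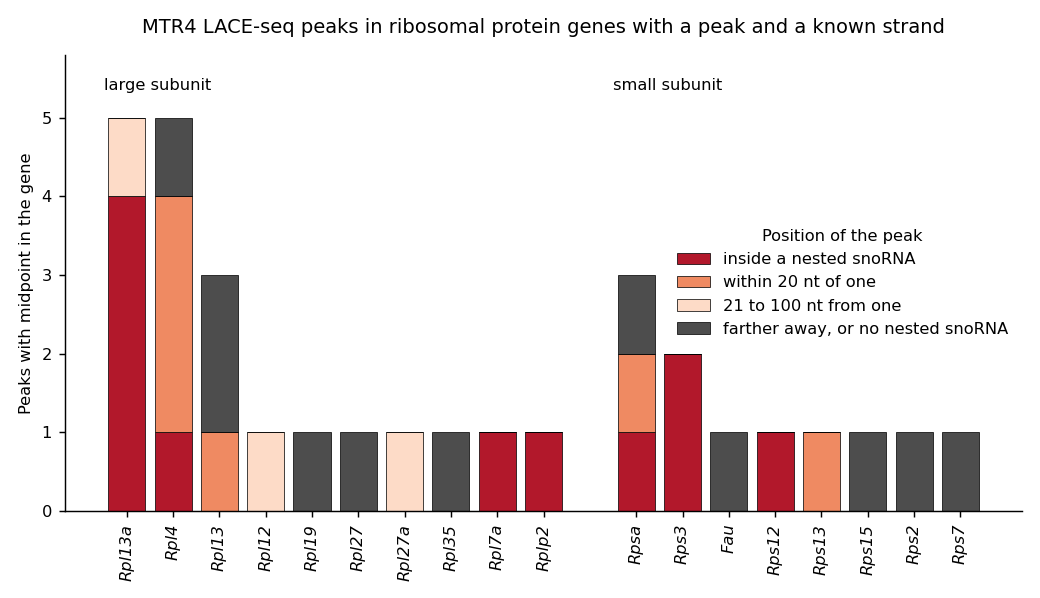
Bars give the number of peaks (vertical axis) in each of the 18 ribosomal protein genes that held a peak and have a strand in the RefSeq promoter table, ordered by subunit and number, with colours for the position of each peak relative to snoRNA genes nested in the gene. Rpl13a and Rpl4 stand highest with 5 peaks each, and most of the taller bars are made of peaks inside or next to snoRNAs.

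Each gene was then tested against the number of peaks its length and surroundings would give, with a 1-sided exact Poisson test in which the background was the peak density of the whole chromosome or of the 500 kb flanking the gene on each side, whichever was greater. Of the 76 members, 3 passed at an adjusted p of 0.05 (Benjamini-Hochberg adjustment over 34614 genes, long noncoding ones included): Rpl4, Rpl13a and Rpsa. Over all genes tested, 0.269% passed. Rpl4, whose product lines the peptide exit tunnel of the large subunit, lies at chr9:64173387-64178562 on the plus strand. It held 5 peaks where 0.0569 were expected, 87.8-fold more (counting interval 28.5 to 205, adjusted exact Poisson p = 1.18e-05). Rpl13a encodes a large subunit protein that is also known in human cells as part of a complex that silences translation, and lies at chr7:45125563-45128745 on the minus strand. It held 5 peaks where 0.0796 were expected, 62.8-fold more (counting interval 20.4 to 147, adjusted exact Poisson p = 4.10e-05). Rpsa, a small subunit protein also known as a laminin receptor precursor, lies at chr9:120127766-120132369 on the plus strand. Its 3 peaks were 72.4-fold over expectation (counting interval 14.9 to 212, adjusted exact Poisson p = 0.00780). The call for Rpsa was lost when same-sign peaks closer than 100 nt were joined (2 peaks, adjusted exact Poisson p = 0.233) and when peaks in small RNA genes were left out (2 peaks, adjusted exact Poisson p = 0.202).

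The other members with more than 1 peak did not pass. Rpl13, of the large subunit, lies at chr8:123102350-123105244 in a region dense in peaks; its 3 peaks were 11.1 times the number expected (adjusted exact Poisson p = 0.399). Against the average of chromosome 8 only, or against the nearest 100 kb, Rpl13 stood at 149-fold and passed (adjusted exact Poisson p of 0.00087 and 0.0014). Rpl17, of the large subunit, lies at chr18:74998978-75003381 and held 2 peaks, 50.5 times its expected number (adjusted exact Poisson p = 0.161). Rps3, a small subunit protein near the mRNA entry site, lies at chr7:99477896-99483709 and held 2, 38.2-fold over it (adjusted exact Poisson p = 0.246). Members with 1 peak had expected numbers so low that folds ran from 4.53 in Rpl19 to 122 in Rplp1, and none passed. The lowest adjusted exact Poisson p among them was 0.801, so a single peak could not reach the threshold in these genes.

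The peaks of ribosomal protein genes were concentrated at their nested snoRNAs. Of the 43 peaks, 16 (37.2%) had their midpoint inside a snoRNA gene that lies in the member, and 27 had it outside. Counted by any overlapping base, 23 of the 43 touched a nested snoRNA. Of the 27, 9 had their midpoint within 20 nt of such a snoRNA, the step of the coordinate grid, and 3 more within 100 nt. So 28 of 43 peaks (65.1%) were at or within 100 nt of a nested snoRNA. That territory is small. The nested snoRNAs cover 5.53 kb, 2.03% of the members' length, and the 100 nt on either side of them another 11.6 kb (4.24%). Density was 2.89 peaks per kb inside snoRNAs (exact Poisson interval 1.65 to 4.70), 1.04 per kb in the 100 nt around them (0.536 to 1.81) and 0.0587 per kb in the rest of the members (0.0329 to 0.0969). The intervals of the first 2 do not reach that of the last. In the other protein-coding genes that host a snoRNA the same 3 densities were 0.872, 0.198 and 0.00491 per kb. Those hosts were far longer, with a median of 71.9 kb, so the last value is not on the same footing. In the 39 of them in the members' length range, density beyond 100 nt of a snoRNA was 0.0448 per kb, against 0.0578 in members that host one.

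Ribosomal protein genes that host a snoRNA held a peak more often than those that do not. RefSeq places 58 snoRNA genes wholly inside 29 of the 76 members. Of these 29 hosts, 20 had a peak (69.0%, Wilson interval 50.8 to 82.7), against 9 of the 47 members without a snoRNA (19.1%, 10.4 to 32.5), and the intervals do not overlap. Median length was 3.18 kb in hosts and 3.16 kb in the others. Once peaks inside or within 100 nt of snoRNAs were left out, 5 of 29 hosts had a peak (17.2%, 7.60 to 34.5), a share inside the interval of the members without snoRNAs. Other protein-coding genes in the same length range showed the same order, with a peak in 20 of 39 snoRNA hosts (51.3%, 36.2 to 66.1) and in 854 of 7159 others (11.9%). The intervals of ribosomal and other hosts overlap.

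**Figure D2:**
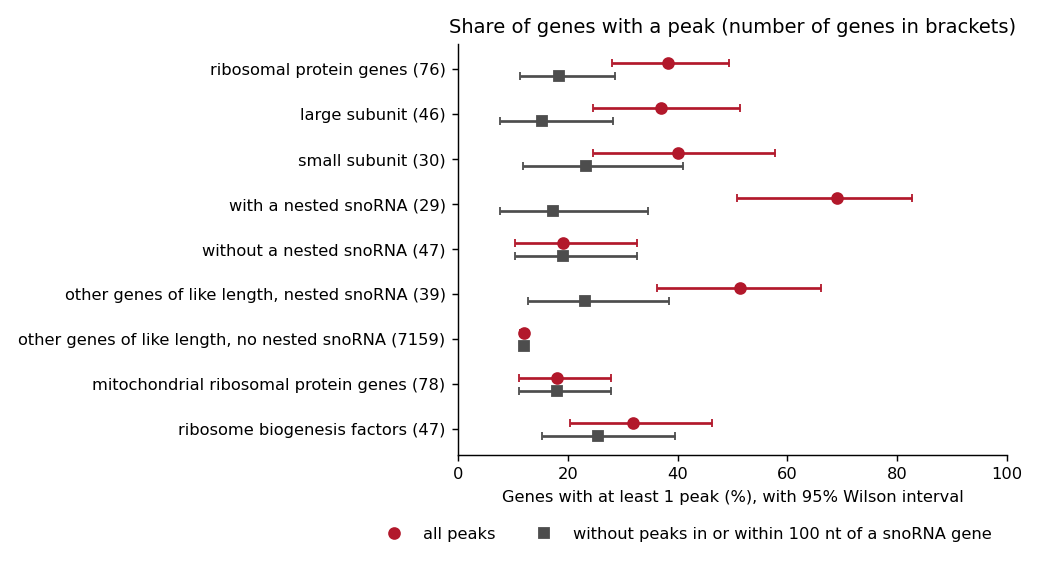
Points give the percentage of genes with at least 1 peak in each group (horizontal axis, 95% Wilson intervals), once with all peaks (circles) and once without peaks in or within 100 nt of a snoRNA gene (squares). Ribosomal protein genes with a nested snoRNA fall from 69.0% to 17.2%, next to the 19.1% of those without.

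Rpl13a showed the pattern in its clearest form. It hosts 4 box C/D snoRNAs, and each of them carried a peak: Snord35a (45126347 to 45126435) with the peak at chr7:45126341-45126360, Snord34 (45126603 to 45126668) with a 40-nt peak at chr7:45126601-45126640, Snord33 (45126864 to 45126945) with chr7:45126861-45126880, and Snord32a (45127383 to 45127463) with chr7:45127381-45127400. The fifth peak, at chr7:45127001-45127020, lay 66 nt from Snord33 and 20 nt from the miRNA gene Mir5121, whose annotated hairpin overlaps Snord33. All 5 had the plus sign, opposite to the gene. Without the 4 peaks inside small RNA genes Rpl13a kept 1 peak, at 12.6-fold, and its adjusted exact Poisson p was 1. In Rpl13, a peak with the plus sign at chr8:123104961-123104980 had its midpoint 5 nt from the hairpin of Mir7079, 274 nt before the end of the gene. The RefSeq hairpins of these miRNA genes (GRCm38.p6, 5′ to 3′) are shown because a peak lies next to each; capitals mark the annotated mature miRNAs.
Mir5121 (chr7:45126918-45126991, minus strand): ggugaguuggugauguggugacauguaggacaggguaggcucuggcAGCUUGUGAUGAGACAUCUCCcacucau
Mir7079 (chr8:123104975-123105043, plus strand): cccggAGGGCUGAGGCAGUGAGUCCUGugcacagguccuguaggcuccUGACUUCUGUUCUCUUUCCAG
The annotated mature miRNA of Mir7079 on the 3′ side ends where its hairpin ends, and both genes lie wholly within their hosts.

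In Rpl4 the peak midpoints lay mostly just before the snoRNAs rather than in them. It hosts 5, the largest number in any member, and 3 of them had a peak inside or within 20 nt. The peak at chr9:64175061-64175080 was inside Gm23344 and another at chr9:64175021-64175040 was 18 nt before it. The peak at chr9:64175421-64175440 overlapped Snord16a with its midpoint 2 nt before it. That at chr9:64177101-64177120 had its midpoint 13 nt before the snoRNA gene LOC115487261. The fifth, at chr9:64177321-64177340, lay 138 nt past LOC115487261, and no peak was found at Gm22571 or Gm23136. Because only 1 midpoint was inside a snoRNA, Rpl4 still passed without peaks in small RNA genes (4 peaks, 70.3-fold, adjusted exact Poisson p = 0.00056), the single member to do so; over all genes 0.194% passed in that setting. With every peak within 100 nt of a snoRNA left out, an alternative chosen after the data had been seen, Rpl4 kept 1 peak. None of the 76 then passed, and 75 genes did over all genes.

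Peaks in the other members with more than 1 divided in a similar way. In Rpsa, chr9:120129341-120129360 and chr9:120129401-120129420 had their midpoints 1 nt before and inside Gm26448. Both peaks overlapped it, and chr9:120130801-120130820 lay 248 nt past Snora62. Rpl17 had its peak midpoints 5 and 10 nt before Gm23301 and Gm26202, which the peaks overlapped, and no peak at Snord58b. Rps3 hosts 2 snoRNAs, Snord15b and Snord15a, and each held 1 of its 2 peaks. In Rpl13, chr8:123103041-123103060 overlapped Snord68 with its midpoint 8 nt before it, and chr8:123103261-123103280 lay 166 nt past it.

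**Figure D3:**
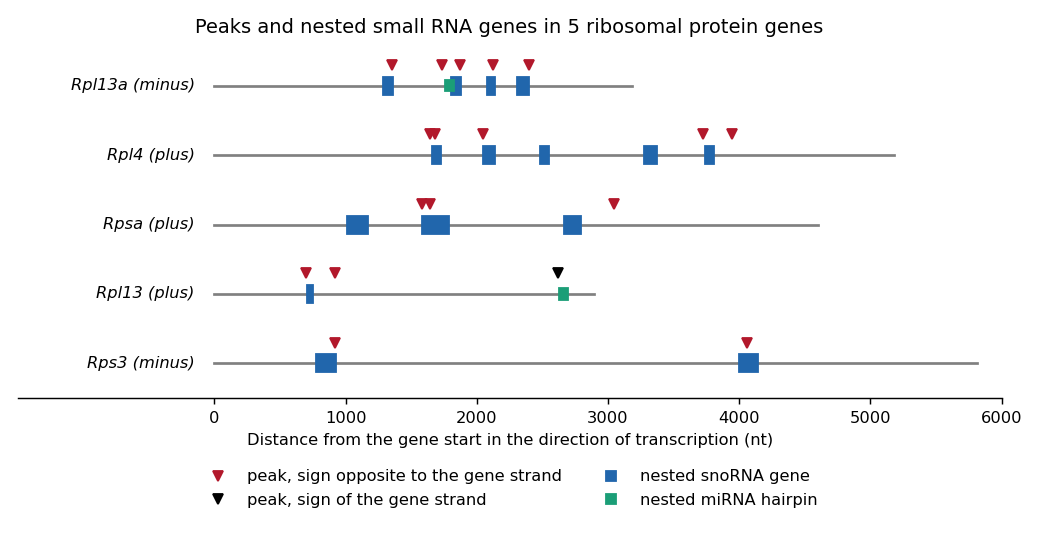
The 5 members with more than 1 peak and a known strand are drawn to scale as grey lines, with distance in nt from the gene start in the direction of transcription on the horizontal axis; blue boxes are nested snoRNA genes, green boxes miRNA hairpins and triangles peak midpoints. Peaks of Rpl13a stand at the right edge of the blue boxes and most peaks of Rpl4 at the left edge.

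Single peaks were found inside a snoRNA in 8 members. Among these were the large subunit genes Rpl21 (in LOC115490268), Rpl3, whose product reaches towards the peptidyl transferase centre (in Snord83b), Rpl32 (in Snora7a, 40 nt wide), Rpl7a (in Gm23969) and the stalk protein gene Rplp2 (in Snora52), and the small subunit genes Rps12 (in Snord100, 40 nt wide) and Rps20 (in LOC115490074). The peaks of 40 nt in Rpl13a, Rpl32 and Rps12 were the only 3 members' peaks wider than 20 nt, and all 3 were in snoRNAs. In Rpl23a the peak midpoint lay 9 nt before Snord42b and in Rps13 it lay 1 nt before Snord14a, and both peaks overlapped the snoRNA. In Rpl27a it was 22 nt before Snora3 and in Rpl12 51 nt before Snora65. "Before" and "past" here follow the coordinates, not the transcript, and distances to snoRNAs run from the peak midpoint. Of the hosts with a peak, 16 had it inside or within 20 nt of a snoRNA; Rps2, with a peak 279 nt from Snora64, was among those that had theirs farther away.

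Counted by snoRNA, 16 of the 58 nested in ribosomal protein genes had a peak inside (27.6%, Wilson interval 17.8 to 40.2) against 6.19% of all 1340 annotated snoRNA genes. Allowing 20 nt on either side, 23 of 58 had one (39.7%, 28.1 to 52.5) against 7.91%. Most annotated snoRNA genes have names other than Snord or Snora, such as Gm or LOC numbers. Of those, 5 of 25 in ribosomal protein genes held a peak inside (20%, 8.86 to 39.1) and 23 of 349 in other protein-coding genes (6.59%, 4.43 to 9.69). Among snoRNAs with a Snord symbol, which mostly names box C/D snoRNAs, the share with a peak inside was 9 of 21 in ribosomal protein genes (42.9%, 24.5 to 63.5) and 15 of 37 in other protein-coding genes (40.5%, 26.3 to 56.5). With a Snora symbol, which mostly names box H/ACA snoRNAs, it was 2 of 12 (16.7%, 4.70 to 44.8) and 3 of 17 (17.6%, 6.19 to 41.0). So the named snoRNAs of ribosomal protein genes held peaks about as often as those of other hosts, within wide intervals. Several snoRNAs of 1 host were not hit alike: 4 of 4 held a peak in Rpl13a, but 1 of 4 in Rpl7a and 0 of 3 in Rpl5.

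Which end of the snoRNA a peak occupied followed the genome coordinates rather than the direction of the host. Of the 25 members' peaks inside or within 20 nt of a snoRNA, 21 were nearer to its lower-coordinate end. This held for both signs, 10 of 13 plus-sign peaks and 11 of 12 minus-sign peaks, with median midpoints 7.5 nt past and 1 nt before that end. For hosts on the plus strand, 8 of 9 such peaks were at the lower end, which is the 5′ end in the direction of transcription, as in Rpl4 and Rpsa. For hosts on the minus strand it was 7 of 8, which is the 3′ end, as in Rpl13a and Rps12. Among the exceptions were Rplp2, Rpl32 and the Snord15b peak of Rps3. All other annotated snoRNA genes showed the same lean, with 35 of 48 plus-sign peaks (72.9%) and 45 of 49 minus-sign peaks (91.8%) nearer the lower end. No label states which base of a read the peaks record, and the cause was not tested.

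**Figure D4:**
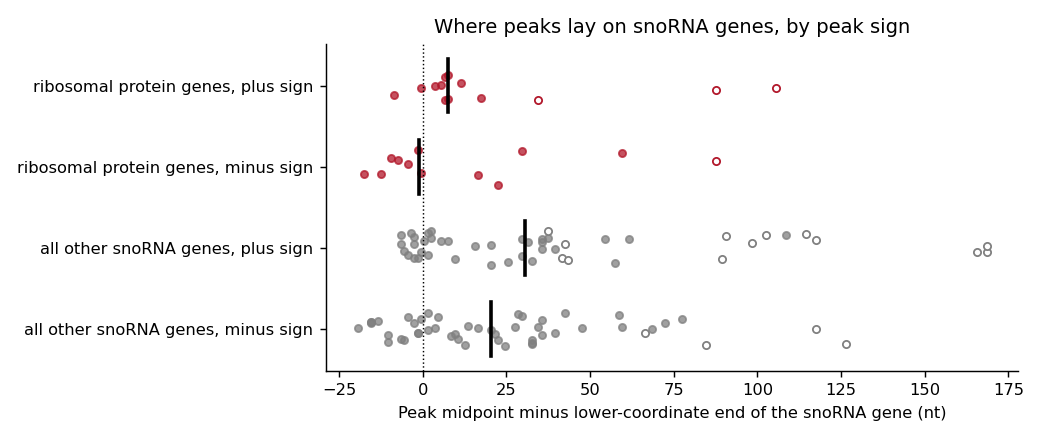
Each point is a peak inside or within 20 nt of a snoRNA gene, placed by its midpoint minus the lower-coordinate end of the snoRNA (nt, horizontal axis), for ribosomal protein genes (red) and all other snoRNA genes (grey) by peak sign; open points are nearer the upper end and black bars are medians. In ribosomal protein genes 10 of 13 plus-sign and 11 of 12 minus-sign peaks are nearer the lower end.

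The peaks were strongly one-sided in sign. The promoter table gives a strand for 57 of the 76 members, which held 31 peaks. The sign was opposite to the gene in 28 of them (90.3%, Wilson interval 75.1 to 96.7), against 3633 of 6909 peaks (52.6%, 51.4 to 53.8) in all protein-coding genes with a strand and 486 of 878 (55.4%, 52.0 to 58.6) in the other genes of the members' length range. The intervals do not overlap. The share was 18 of 20 in the large subunit and 10 of 11 in the small. It was also high, 189 of 237 (79.7%, 74.2 to 84.4), in the other protein-coding genes that passed the Poisson test, so it was not particular to ribosomal protein genes. All 5 peaks of Rpl4 and all 3 of Rpsa had the minus sign on plus-strand genes, and both of Rps3 had the plus sign on a minus-strand gene. Beyond 100 nt of snoRNAs 8 of 11 were opposite (72.7%, 43.4 to 90.3), an interval that includes the 52.2% of all genes. The 3 peaks with the sign of the gene were in Rpl35, Rps7 and, next to Mir7079, Rpl13.

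**Figure D5:**
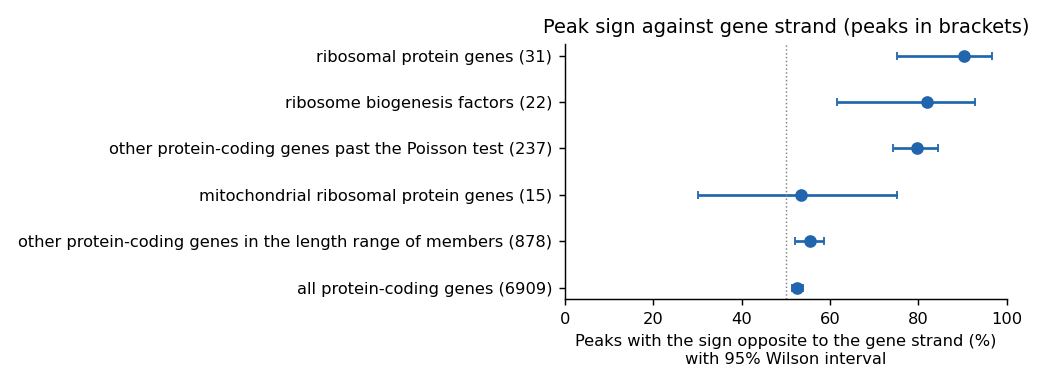
Points give the percentage of peaks whose sign is opposite to the strand of the gene they lie in (horizontal axis, 95% Wilson intervals), with the number of peaks in brackets and a dotted line at 50. Ribosomal protein genes stand at 90.3% and all protein-coding genes at 52.6%.

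Away from snoRNAs, several peaks lay close to the start of the gene. Among members without a nested snoRNA, 9 held 1 peak each. In Fau, which encodes a ubiquitin-like protein fused to a small subunit protein, the midpoint was 143 nt from the gene start (chr19:6058081-6058100). It was 160 nt from the start in Rpl35 (chr2:39004961-39004980), 199 nt in Rps15 (chr10:80292621-80292640) and 225 nt in Rpl27 (chr11:101442461-101442480). In Rpl19 (chr11:98028361-98028380) it was 6367 nt, and in Rps7 (chr12:28633661-28633680) 2282 nt, from the start. These distances are from the start of the whole gene interval. The promoter table places the starts of Rpl19 4707 and 4921 nt into its interval, so its peak lay nearer to those. The peak in the stalk protein gene Rplp1 (chr9:61914401-61914420), which has no strand in the table, was 99 nt from the nearer end of the gene. Of the 11 peaks beyond 100 nt of a snoRNA in members with a strand, 4 (36.4%) were within 300 nt of the gene start, a stretch that makes up 8.03% of their length. In other genes of the same length range it was 179 of 853 peaks (21%) over 5.32% of the length. With the gene cut into 3 equal stretches, the first held 5 of the 11 (45.5%), the middle 3 and the last 3. In the other genes the first stretch held 50.1% of peaks, so a lean to the start was not particular to ribosomal protein genes.

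The RefSeq start sites of the 4 members with a peak within 300 nt of the start are shown because the oligopyrimidine start is the feature for which these genes are known. Each window has 30 nt before and 30 nt from the annotated start (GRCm38.p6, gene strand, 5′ to 3′), with the run of C and T that begins at the start, if any, in capitals.
Fau (chr19:6057917-6057976, plus strand): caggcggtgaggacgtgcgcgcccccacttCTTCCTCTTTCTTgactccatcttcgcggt
Rpl35 (chr2:39005102-39005161, minus strand): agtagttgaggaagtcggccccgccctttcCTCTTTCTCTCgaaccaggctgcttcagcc
Rpl27 (chr11:101442215-101442274, plus strand): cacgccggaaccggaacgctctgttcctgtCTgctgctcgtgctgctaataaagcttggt
Rps15 (chr10:80292401-80292460, plus strand): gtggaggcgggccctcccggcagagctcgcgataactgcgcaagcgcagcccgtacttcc
The run was 13 nt in Fau, 11 nt in Rpl35 and 2 nt in Rpl27, and the annotated start of Rps15 was not a pyrimidine. A start with C followed by 4 bases that are C or T, read on the gene strand at any annotated start, was found in 14 of the 57 members in the table (24.6%, Wilson interval 15.2 to 37.1), against 467 of 17492 protein-coding genes (2.67%) and 0 of 69 mitochondrial ribosomal protein genes (up to 5.27%). It was found in 3 of 18 members with a peak (16.7%, 5.84 to 39.2) and in 11 of 39 without (28.2%, 16.5 to 43.8), and these intervals overlap. Annotated starts can differ from the start used in these cells by several bases, and a start without the pattern says only that these letters are not at the annotated position.

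The subunits did not separate. A peak was found in 17 of 46 large subunit genes (37.0%, Wilson interval 24.5 to 51.4) and in 12 of 30 small subunit genes (40%, 24.6 to 57.7). Density was 0.165 peaks per kb in the large (exact Poisson interval 0.109 to 0.238) and 0.146 in the small (0.0819 to 0.241). Large subunit genes hosted 40 of the 58 snoRNAs, in 20 of 46 genes, and small subunit genes 18, in 9 of 30. Among hosts a peak was found in 13 of 20 large (65.0%, 43.3 to 81.9) and 7 of 9 small subunit genes (77.8%, 45.3 to 93.7), and among the others in 4 of 26 (15.4%, 6.15 to 33.5) and 5 of 21 (23.8%, 10.6 to 45.1). By snoRNA, 10 of 40 in large subunit genes had a peak inside (25.0%, 14.2 to 40.2) and 6 of 18 in small subunit genes (33.3%, 16.3 to 56.3). Every pair of intervals overlaps, and with these numbers a moderate difference between subunits would not be seen.

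No peak was found in 47 members. Among them were the longest, Rps15a at 11774 nt, Rpl22 at 9647 nt and Rpl5 at 8498 nt; the last encodes a large subunit protein that binds 5S rRNA. Of the 29 hosts, 9 had no peak, Rpl5 with 3 snoRNAs and 8 others, Rpl10 and Rpl23 among them, with 1 each. At most 0.140 peaks were expected in any member without a peak, so a count of 0 does not show that a member was free of MTR4.

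Other genes of the ribosome gave fewer peaks for their length. Of 78 mitochondrial ribosomal protein genes, whose products form the separate ribosome of mitochondria, 14 had a peak (17.9%, Wilson interval 11.0 to 27.9) and 0 passed the Poisson test. Mrpl14 and Mrps7 held 2 peaks each, and 12 other genes, Mrpl1 the first by name, held 1 each. Their density was 0.0158 per kb and 8 of their 15 peaks with a strand were opposite to the gene (53.3%). Of 47 ribosome biogenesis factors, 15 had a peak (31.9%, 20.4 to 46.2) and 1 passed, the box C/D snoRNA protein gene Nop58 with 4 peaks (30.3-fold, adjusted exact Poisson p = 0.00780). The nucleolin gene Ncl, itself a snoRNA host, had 3 (18.5-fold, adjusted exact Poisson p = 0.138), and 5 genes had 2. Mdn1, of the large subunit assembly pathway, is the first of these by name and had the lowest fold of them, 1.54 (adjusted exact Poisson p = 1), while the highest was 9.21. In this list 18 of 22 peaks were opposite to the gene (81.8%, 61.5 to 92.7). Without the peaks in or within 100 nt of a snoRNA gene, 12 of the 47 factors had a peak (25.5%), and 17 of their 25 peaks remained. Whether Nop58 passed without such peaks is not given here, so its call may rest on snoRNA peaks. Median length was 7.69 kb for the mitochondrial list and 14.5 kb for the biogenesis factors, so their shares are not on the same footing as those of the shorter members.

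Copies elsewhere in the genome limit the assignment of peaks. RefSeq lists 318 genes whose symbol is a ribosomal protein name of the same pattern followed by ps and a number, of which 315 are annotated as pseudogenes. At least 1 such gene is named after 62 of the 76 members, and after 25 of the 29 with a peak. A peak was found in 12 of the 318 (3.77%, Wilson interval 2.17 to 6.48), 10 of them named after a member that also held a peak. Of these 12, 3 were named after Rpsa and 3 after Rpl19. How the authors treated reads that map to several places is not given in the sources used here, so peaks in exons of members are uncertain in this respect. Peaks at nested snoRNAs with like-named genes elsewhere are uncertain too. Snord14a in Rps13 had a peak inside or within 20 nt, and so did Snord14c, Snord14d and Snord14e outside the members. Copies of snoRNAs were not counted. No gene of the ps pattern is named after Rpl4 or Rps3, which says nothing about copies of their snoRNAs.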

How the data were processed

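LACE-seq of MTR4 was deposited for 3 samples of KIT-positive cells of postnatal day 8 testes, irradiated at 400 mJ. Per the submitters' processing notes, the tools were cutadapt 1.15 and Bowtie 1.0.0 and the build mm10. No protocol states the peak caller or its settings; the name of the deposited list reads as merged, deduplicated and called with Piranha, which was not checked. The deposited list holds chromosome, start, end and sign for 15769 peaks, with no score, count or p-value, so depth is unknown. Coordinates are printed 1-based.

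Peaks were joined by midpoint to RefSeq genes of GRCm38.p6, the primary chromosomes of mm10. That table has no strand or exons, so exons and introns were not told apart; strands came from the RefSeq promoter table (57 members; the other 19 are not oriented). Nested snoRNAs lie wholly inside a gene. The per-gene test was a 1-sided exact Poisson test over 34614 genes with Benjamini-Hochberg adjustment (scipy 1.17.1). The gene's own peaks were left out of its local density. The test was tried on simulated peaks placed evenly at random along each chromosome. Peaks of the real list cluster, so that trial does not show how the test behaves on them. Shares have 95% Wilson intervals, densities exact Poisson ones; genes and snoRNAs are not replicates, so no test was made between groups. Peaks in 1 sign less than 100 nt apart were merged in an alternative.

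The members and lists were chosen with earlier results of these data known. Members with a peak are named, except a few that are not reported here but stay in the counts, with full values for those with at least 2 or past the test, and from each pathway list the 3 genes with most peaks. No paired analysis was possible because only 1 list was analysed.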

Additional observations from a re-analysis of the deposited data

How the results depend on the processing

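The main limits are the single list, the absence of scores and of a control precipitation, and the 20-nt grid, which blurs whether a peak is inside a snoRNA. Stricter scores and leaving out a replicate were not run, since the list holds neither scores nor replicate values. No paired analysis was possible because the list carries no replicate values.

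The main counts were 29 genes with a peak (17 large, 12 small subunit), 43 peaks, 3 genes past the Poisson test and 16 peaks inside snoRNAs. Any-base overlap moved none of these by over 1.5 times, but it raised the peaks in snoRNAs from 16 to 23, more than those outside. Protein-coding genes alone, genes of 20 kb or less, the 100-kb window, the chromosome density and own peaks in the local density were run for the Poisson test only, where 3 or 4 genes passed. Without peaks in small RNA genes, 27 peaks and 1 gene past the test remained. Without peaks within 1000 nt of small RNA genes, 9 genes (4 large, 5 small), 9 peaks and 0 past the test remained. Without peaks within 100 nt of snoRNAs, chosen after the data had been seen, 14 genes (7 and 7), 15 peaks and 0 past the test remained. Among peaks of 40 nt or more, 3 genes (2 and 1), 3 peaks, 3 of them in snoRNAs, and 0 past the test remained. Plus-sign peaks alone gave 12 genes (7 and 5), 17 peaks and 1 past the test, and minus-sign peaks alone 18 genes (11 and 7), 26 peaks and 5 in snoRNAs. Allowing 20 or 100 nt around a snoRNA gave 25 or 28 peaks. These follow from fewer peaks or wider windows. With nearby peaks merged, 2 genes passed, and Rpsa kept 2 peaks and did not (adjusted exact Poisson p = 0.233). Over all genes, 93 passed in the main setting, 53 with peaks merged and 183 with the chromosome density alone. With plus-sign peaks 64 passed, with minus-sign peaks 35 and with peaks of 40 nt or more 20. The number was 69 for protein-coding genes alone, 70 for genes of 20 kb or less, 79 with the 100-kb window and 74 with own peaks included. It was 67 without peaks in small RNA genes, 65 without those within 1000 nt of them and 75 without those within 100 nt of snoRNAs.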

Other observations

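Near the members but outside them, 5 peaks lay within 1 kb of a gene end. Of these, 3 were beside Rps29, a small subunit gene, 84, 184 and 324 nt beyond its upper-coordinate end, and the last 2 fell in Rn7s1, a gene of the signal recognition particle RNA. Rpl13a had 1 peak 445 nt from its upper end, with the plus sign of its inner peaks, and Rpl28 had 1 at 234 nt from its lower end. Related genes that the naming rule leaves out held no peak: 0 of 14 (share up to 21.5% by the Wilson interval). Among them were Rps3a1, the fusion gene Rps27a, the paralog Rpl22l1 and Rps4l, which is annotated as a transcribed pseudogene.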
